A study of Mus musculus with 42 samples.

Results

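The small heat shock proteins of muscle were followed here across cultured mouse muscle precursors and stem cells isolated from muscle. The group was taken as 7 genes, the rows with the symbols Cryab, Hspb1, Hspb2, Hspb3, Hspb6, Hspb7 and Hspb8 in the RNA-seq count files, out of 24466 genes listed there. All 7 had enough reads to be tested among 14836 genes. RNA was sequenced from iPax7 cells in 3 libraries with Dox (+Dox), from iPax7 cells 3 days after Dox was withdrawn in 2 libraries (-Dox 3d), and from satellite cells in 3 libraries. iPax7 cells derive from a mouse embryonic stem cell line in which doxycycline (Dox) drives a Pax7 transgene, and muscle precursors were sorted from its embryoid bodies as cells with PDGFRα and without Flk-1. They were grown in serum with FGF, with Dox at 0.75 µg/ml in the +Dox group and without it in the -Dox 3d group, so both iPax7 groups carry the transgene and come from 1 line. Satellite cells were isolated from muscle of mice with a Pax7-ZsGreen reporter, and the authors describe those used for ATAC-seq as freshly sorted. The age of the mice is not given in the sources used here. Chromatin was profiled in the same iPax7 conditions by ATAC-seq and by ChIP-seq of histone marks, with 1 deposited peak file for each condition, made from merged replicates. ATAC-seq also covered iPax7 cells 12 h and 24 h after withdrawal, iPax7 myotubes and satellite cells. C2C12 cells, a mouse myoblast line, were profiled by ATAC-seq as parental myoblasts and as myotubes. Stable C2C12 lines with flag-tagged Pax7 or a flag control were profiled by ATAC-seq and by ChIP-seq of histone marks. Pax7 sites came from ChIP-seq in iPax7 cells. Nothing in the sources used here says whether the RNA libraries of a group came from separate cultures or animals, so the p-values measure the spread between these libraries, which may be technical.

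Small heat shock proteins are chaperones that hold unfolding proteins in a soluble state without using ATP, and they share the alpha-crystallin domain. Striated muscle contains an unusually broad set of them, which associate with desmin filaments, actin and the Z-disc. Cryab encodes alpha-B crystallin and Hspb1 encodes HSP27 (HSP25 in mouse). Hspb2 and Hspb3 proteins form a complex with each other. Hspb6 encodes HSP20, Hspb7 encodes the cardiovascular heat shock protein cvHSP, which is abundant in heart and skeletal muscle, and Hspb8 encodes HSP22, the partner of BAG3 in the selective autophagy of damaged Z-disc proteins. Only some family members are inducible by heat through heat shock factor 1, while others are expressed with the muscle programme.

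The genes lie on 5 chromosomes in the NCBIM37 (mm9) build. Cryab (chr9:50560863-50564738, plus strand) and Hspb2 (chr9:50559177-50560459, minus strand) stand head to head, with 403 bases between their start sites. Hspb1 is at chr5:136363789-136365433 (plus) and Hspb8 at chr5:116858500-116872873 (minus). Hspb3 is a gene of 1 exon at chr13:114453104-114453884 (minus), Hspb6 is at chr7:31337197-31340462 (plus) and Hspb7 at chr4:140976694-140981226 (plus). Hspb6 overlaps the exons of 2 genes on the other strand, BC053749 by 119 bases and Lin37 by 3 bases. The strand setting of the counting is not given in the sources used here.

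Promoters are shown for 3 of the genes because their letters differ in the elements that heat shock factors and muscle transcription factors recognise. RefSeq promoters of 300 bases, from 250 before to 50 after a start site (build GRCm38.p6), were available for 5 of the 7 genes, with 2 start sites for Hspb6, and each of the 6 sequences was found at exactly 1 place in the older build. Cryab and Hspb2 had no entry. Capitals mark the heat shock element GAANNTTC and, in Hspb3, also the MEF2 site of 10 letters around its TATA box.
Hspb1, chr5:135887669-135887968, plus strand: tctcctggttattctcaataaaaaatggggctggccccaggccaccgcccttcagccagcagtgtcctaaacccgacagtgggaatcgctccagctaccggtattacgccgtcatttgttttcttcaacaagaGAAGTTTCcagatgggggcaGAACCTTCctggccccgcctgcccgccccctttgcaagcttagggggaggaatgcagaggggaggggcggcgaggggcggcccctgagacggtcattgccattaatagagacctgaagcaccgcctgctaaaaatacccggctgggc
Hspb8, chr5:116422815-116423114, minus strand: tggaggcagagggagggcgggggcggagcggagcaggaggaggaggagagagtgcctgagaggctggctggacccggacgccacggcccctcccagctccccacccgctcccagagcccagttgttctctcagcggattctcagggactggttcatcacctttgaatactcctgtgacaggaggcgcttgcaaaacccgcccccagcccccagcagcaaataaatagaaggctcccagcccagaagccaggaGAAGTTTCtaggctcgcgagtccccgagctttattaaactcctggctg
Hspb3, chr13:113663627-113663926, minus strand: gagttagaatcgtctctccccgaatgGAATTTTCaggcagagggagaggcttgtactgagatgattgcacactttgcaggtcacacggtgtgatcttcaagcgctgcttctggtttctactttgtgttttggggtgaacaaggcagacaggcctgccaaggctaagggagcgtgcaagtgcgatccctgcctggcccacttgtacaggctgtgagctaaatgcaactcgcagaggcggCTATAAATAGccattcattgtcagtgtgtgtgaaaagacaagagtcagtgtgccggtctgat

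The GAANNTTC letters were in 4 of the 5 genes with a promoter entry. Hspb1 held 2 copies, at positions -117 and -97 from the start site. Hspb8 held the same 8 letters as the upstream Hspb1 copy, GAAGTTTC, beginning at position 2 counted from its start, and Hspb6 held them at position -120 from its downstream start site. Hspb3 had GAATTTTC at position -224. The Hspb7 promoter held no match. Among 32851 RefSeq promoters of the same length, 7.86% held GAANNTTC and 8.52% held the mirrored TTCNNGAA, which no promoter of the group contained. Both patterns read the same on either strand. The MEF2 site of Hspb3, CTATAAATAG, began at position -12 and contains the TATA box TATAAA. MEF2 sites were found in 3.19% of all promoters and TATA boxes in 13.6%. A CArG box, the site of serum response factor, was in 1.63% of all promoters and in none of the 6. The E-box CANNTG, read by MyoD and myogenin, was in 72.3% of all promoters and in those of Hspb1, Hspb3, Hspb7 and Hspb8. A match of letters is a description and not evidence that a factor bound there.

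The Pax7 and Myog transcripts followed the labels. Levels are given as CPM, the reads of a gene relative to the size of its library, after TMM normalisation. Pax7 stood at 271 ± 26.7 CPM (SD, n = 3) with Dox, at 5.18 ± 0.732 (n = 2) after withdrawal and at 126 ± 49.3 (n = 3) in satellite cells, and Myog, the gene of myogenin, rose from 87.8 ± 12.5 to 3700 ± 423 CPM after withdrawal. Libraries held 39010958 to 54674619 reads on genes, and 23.6 to 30.7% of satellite cell alignments were multi-mapped against 7.11 to 7.60% in iPax7 cells. The satellite cell libraries carried transcripts of other cells of muscle. Their 5 endothelial markers summed to 289 to 423 CPM against at most 3.52 in iPax7 libraries, the 6 mesenchymal markers to 1250 to 2320 CPM against 87.6 to 266, the 4 Schwann cell markers to 40.2 to 68.1 against at most 1.94, and the 6 blood markers to 14.2 to 55.1 against at most 9.80. Cdh5 was at 0 in all iPax7 libraries, and the globin genes Hba-a1 and Hbb-b1 were at 0 in every library. The 6 smooth muscle and pericyte markers summed to 387 to 814 CPM in satellite cells, to 1150 after withdrawal and to 68.3 to 154 with Dox. After withdrawal nearly all of this sum was Acta2, at an average of 1140 CPM. Of the 6 markers, 1 was then higher than in satellite cells and 4 were lower, beside 18.1% and 20.9% of all tested genes. The part of other cells of muscle in the levels given here was not tested. In such bulk samples fewer cells of a type cannot be told apart from less RNA per cell.

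**Figure D1:**
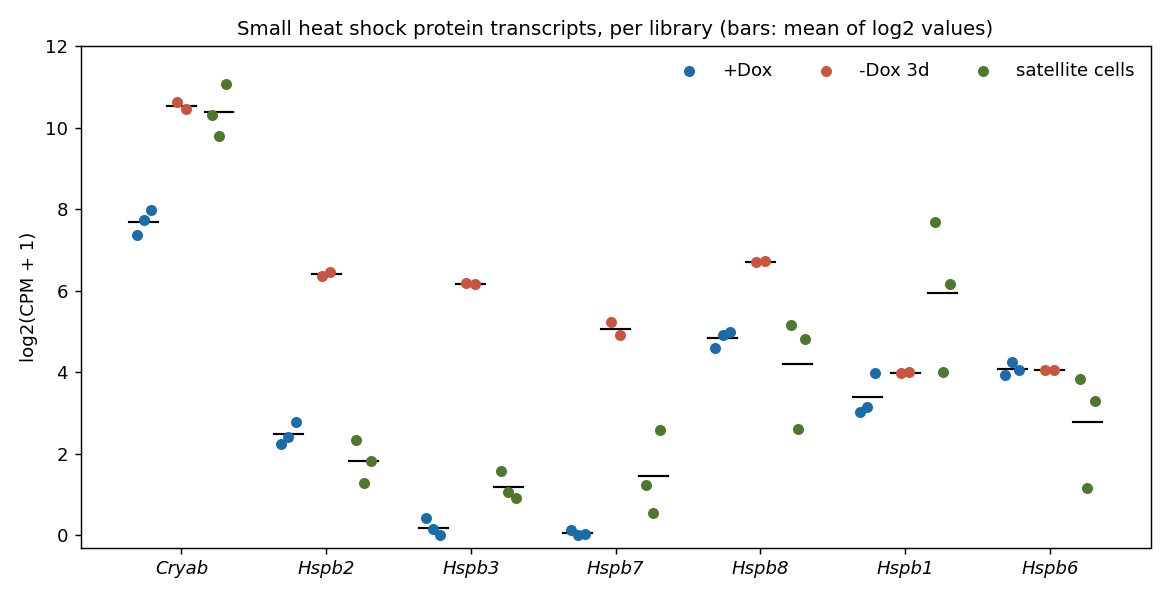
Level of each transcript in each of the 8 libraries as log2(CPM + 1); points are libraries, black bars are means of the log2 values, n = 3, 2 and 3. Hspb2, Hspb3, Hspb7 and Hspb8 stand highest after Dox withdrawal, Cryab is high after withdrawal and in satellite cells alike, and Hspb1 is spread most widely in satellite cells, from 15.0 to 203 CPM.

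Cryab dominated the family in every group. On the per-length scale (CPM per kb of annotated exon), it reached 176 ± 37.1 (SD, n = 3) with Dox, 1250 ± 101 (n = 2) after withdrawal and 1210 ± 545 (n = 3) in satellite cells. It made up 82.2 to 83.3% of the summed per-length level of the 7 genes in the +Dox libraries, 80.8 to 82.8% after withdrawal and 82.4 to 97.3% in satellite cells. Among 20478 genes with an annotated length, Cryab ranked at position 365 with Dox, 42 after withdrawal and 39 in satellite cells. The summed level of the family was 213 ± 44.1 CPM per kb with Dox, 1530 ± 97.4 after withdrawal and 1320 ± 568 in satellite cells.

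Below Cryab, the order changed from group to group. With Dox, Hspb8 (14.2 CPM per kb), Hspb1 (9.63), Hspb6 (6.95) and Hspb2 (5.53) followed, each with a range over libraries that overlapped that of the next in order, and Hspb3 (0.189) and Hspb7 (0.0138) lay far below. After withdrawal, the order was Hspb2 (99.9), Hspb3 (91.2), Hspb8 (53.2), Hspb1 (14.5), Hspb7 (11.8) and Hspb6 (6.78), with no overlap between neighbours in the 2 libraries. In satellite cells, Hspb1 (93.3, SD 93.9) came next to Cryab. Hspb8 (11.4), Hspb6 (3.40), Hspb2 (3.22), Hspb3 (1.70) and Hspb7 (0.816) followed. From Hspb1 on, the range of each gene overlapped that of the next in order. Hspb3 thus ranked at position 10748 of 20478 genes with Dox and at 813 after withdrawal. The remaining small heat shock proteins of the genome, Cryaa of the lens and Hspb9 and Odf1 of testis, summed to at most 0.214 CPM in any library and were too low to test.

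The comparison of -Dox 3d with +Dox asks how the genes respond when Pax7 is lost and the precursors differentiate. By edgeR's quasi-likelihood test on all 8 libraries, with Benjamini-Hochberg adjustment over all genes, 4 of the 7 genes rose (Cryab, Hspb2, Hspb3 and Hspb7), against 4.66% of all tested genes, and none fell, against 3.04%. At an unadjusted p under 0.05, 5 rose and 0 fell, and DESeq2 also called 5 higher and 0 lower. Over all genes DESeq2 called 1192 of 18227 higher and 1111 lower. For counts at an unadjusted p, here and below, no share of all genes is given. The median log2 fold change of the 7 genes was 2.83, and that of all tested genes -0.005.

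Cryab was read at 164, 211 and 252 CPM in the +Dox libraries and at 1570 and 1400 CPM after withdrawal. The groups did not overlap, and the fitted change was 7.11-fold (log2 fold change 2.83, SE 0.368, adjusted p = 0.00184). Hspb2, its head-to-head neighbour, was at 3.73, 4.34 and 5.85 CPM with Dox and at 80.8 and 86.9 CPM after withdrawal. Its change was 18.1-fold (log2 4.17, SE 0.471, adjusted p = 0.000857).

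Hspb3 and Hspb7 went from the floor of detection to clear expression. Hspb3 had 21, 7 and 0 reads in the +Dox libraries (0.334, 0.110 and 0 CPM) and 3681 and 3637 reads after withdrawal (71.5 and 71.0 CPM). Hspb7 had 6, 0 and 1 reads with Dox and 1871 and 1480 reads after withdrawal (36.4 and 28.9 CPM). Every -Dox 3d library stood above every +Dox library for each gene. The log2 fold changes were 8.86 (SE 1.03, adjusted p = 0.00105) for Hspb3 and 9.62 (SE 1.36, adjusted p = 0.00271) for Hspb7, and their size rests on the 28 and 7 reads in all +Dox libraries. Without +Dox replicate 1, the log2 fold changes were 10.20 for Hspb3 and 11.48 for Hspb7.

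Hspb8 was at 23.2, 29.0 and 30.7 CPM with Dox and at 102 and 105 CPM after withdrawal. The groups did not overlap, but the change of 3.75-fold (log2 1.91, SE 0.606) missed the threshold in the fit over all 8 libraries (adjusted p = 0.0946). It passed when only the 5 iPax7 libraries were fitted (adjusted p = 0.00203), when satellite cell replicate 2 was left out (0.0046) and with DESeq2 (0.0218). In satellite cells, which share the estimate of the spread in that fit, the highest Hspb8 library exceeded the lowest 6.71-fold, and in the iPax7 groups at most 1.32-fold.

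Hspb1 and Hspb6 gave no call. Hspb1 was at 7.13, 7.85 and 14.8 CPM with Dox and at 14.7 and 15.1 CPM after withdrawal, so that +Dox replicate 3 lay within the range of the -Dox 3d libraries (1.5-fold, 95% interval 0.433 to 5.21, adjusted p = 0.771). Hspb6 was at 14.3, 17.9 and 15.7 CPM with Dox and at 15.6 and 15.5 CPM after withdrawal. Its fitted ratio was 0.975, with a 95% interval of 0.304 to 3.13 (adjusted p = 1), which leaves room for a change of either sign.

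**Figure D2:**
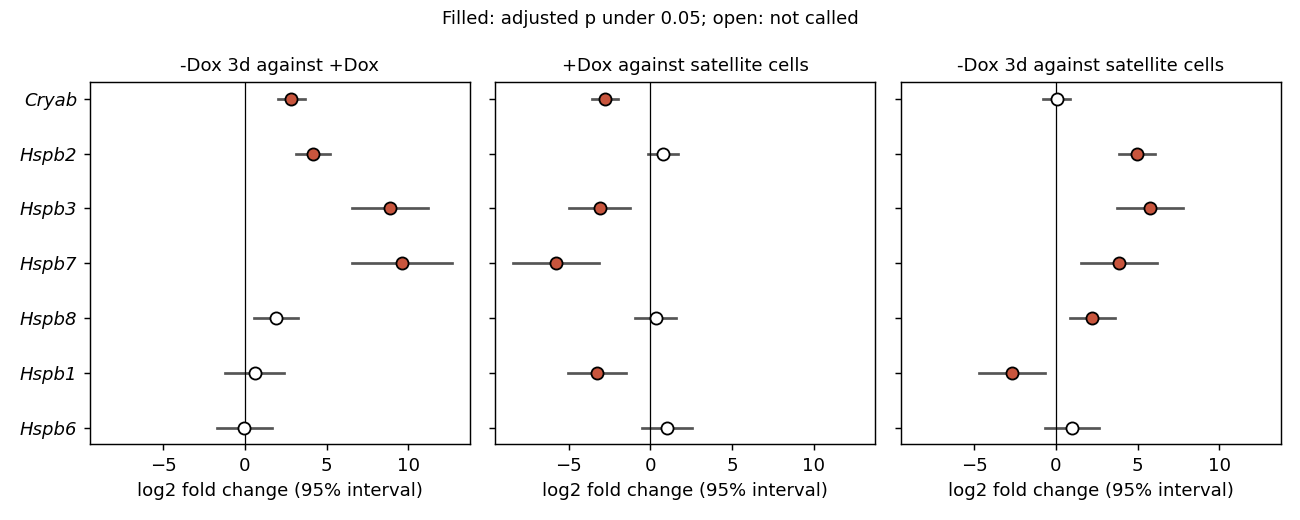
Fitted log2 fold change of each gene in the 3 comparisons, with its 95% interval; filled points have an adjusted p under 0.05 in edgeR's quasi-likelihood test. Cryab, Hspb2, Hspb3 and Hspb7 are higher after withdrawal than with Dox, and Cryab, Hspb3, Hspb7 and Hspb1 are lower with Dox than in satellite cells.

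The comparison of +Dox iPax7 cells with satellite cells sets precursors that express Pax7 in culture beside stem cells that express it in muscle. Cryab, Hspb1, Hspb3 and Hspb7 were lower in +Dox cells, 4 of 7 genes against 25.1% of all tested genes. None was higher, against 19.8% of all genes, and at an unadjusted p under 0.05 or with DESeq2 the number higher was also 0. Over all genes DESeq2 called 3247 of 18227 higher with Dox. The median log2 fold change was -2.78, beside -0.174 for all tested genes.

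Cryab was at 1267, 886 and 2146 CPM in the satellite cell libraries, above each +Dox library, and was 6.86-fold lower with Dox (log2 -2.78, SE 0.349, adjusted p = 0.000273). Hspb1 was at 203, 15.0 and 70.2 CPM in satellite cells. The highest +Dox library, at 14.8 CPM, came close to the lowest of these, and the fitted difference was 9.69-fold (log2 -3.28, SE 0.786, adjusted p = 0.00845). Without satellite cell replicate 1 the log2 fold change of Hspb1 was -2.10 (adjusted p = 0.0266). Hspb7 had 48, 16 and 179 reads in satellite cells (1.34, 0.454 and 4.99 CPM), above the 7 reads in all +Dox libraries (log2 -5.78, SE 1.18, adjusted p = 0.00384). Hspb3 had 72, 38 and 32 reads (2.00, 1.08 and 0.892 CPM), with a log2 fold change of -3.11 (SE 0.834, adjusted p = 0.0141). Without +Dox replicate 1 the log2 fold changes were -7.57 for Hspb7 and -4.41 for Hspb3, and without satellite cell replicate 3 that of Hspb7 was -4.45. The Hspb3 call was lost when only these 6 libraries were fitted (adjusted p = 0.111) and when +Dox replicate 2 was left out (0.0504).

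Hspb2, Hspb6 and Hspb8 were not called. Hspb2 was at 4.09, 1.45 and 2.57 CPM in satellite cells, and the +Dox libraries at 3.73 to 5.85 CPM overlapped them (1.72-fold, 95% interval 0.911 to 3.24, adjusted p = 0.145). Without satellite cell replicate 1, it was called higher with Dox (log2 1.21, adjusted p = 0.0302). Hspb6 was at 13.4, 1.25 and 8.81 CPM in satellite cells, each below each +Dox library (2.05-fold, interval 0.713 to 5.87, adjusted p = 0.24). Hspb8 was at 34.4, 5.13 and 27.2 CPM, a range that took in all +Dox libraries (1.24-fold, interval 0.529 to 2.91, adjusted p = 0.673).

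The comparison of -Dox 3d cells with satellite cells shares its libraries with the other 2. Hspb2, Hspb3, Hspb7 and Hspb8 were higher after withdrawal, 4 of 7 genes against 18.1% of all tested genes, and Hspb1 was lower, against 20.9%. The median log2 fold change was 2.22, beside -0.231 for all genes. Hspb2 was 31.0-fold higher (log2 4.96, SE 0.487, adjusted p = 0.000117) and Hspb3 53.7-fold higher (log2 5.75, SE 0.897, adjusted p = 0.00109). Hspb7 was 14.4-fold higher (95% interval 2.85 to 72.9, adjusted p = 0.0168) and Hspb8 4.66-fold higher (interval 1.81 to 12.0, adjusted p = 0.0177). Without satellite cell replicate 3 the log2 fold change of Hspb7 was 5.18, against 3.85 with it. Hspb1 was 6.45-fold lower (log2 -2.69, SE 0.900, adjusted p = 0.0397), with satellite cell replicate 2, at 15.0 CPM, between the -Dox 3d libraries at 14.7 and 15.1 CPM. Without -Dox 3d replicate 1 or without replicate 2, the calls of Hspb1, Hspb7 and Hspb8 were lost and 2 calls remained, those of Hspb2 and Hspb3. The Hspb1 call was also lost without satellite cell replicate 1 (log2 -1.52, adjusted p = 0.116), without satellite cell replicate 3 (0.0571) and without +Dox replicate 1 (0.0537) or 2 (0.0545).

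Cryab did not differ detectably between -Dox 3d and satellite cells (log2 0.05, SE 0.364, adjusted p = 0.928), and the 95% interval of the ratio, 0.588 to 1.83, contains changes of up to 1.83-fold. The -Dox 3d libraries lay inside the range of the satellite cell libraries. Hspb6 was 1.99-fold higher after withdrawal, with an interval of 0.631 to 6.31 (adjusted p = 0.306).

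Cryab and Hspb2 kept a different balance in each group. The libraries held 43.9, 48.6 and 43.0 Cryab reads per Hspb2 read with Dox, 19.4 and 16.1 after withdrawal, and 310, 613 and 836 in satellite cells. The 3 groups did not overlap. On the log2 scale, the ratio was 1.35 lower after withdrawal than with Dox (2.55-fold), and 3.59 lower with Dox than in satellite cells (12.0-fold). An exact two-sided permutation test gave p = 0.1 for each of the 3 pairs (0.1 after Benjamini-Hochberg adjustment), which is the smallest value that 3 against 2 or 3 against 3 libraries allow. Because it is a ratio within each library, this measure does not depend on the scaling between libraries.

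**Figure D3:**
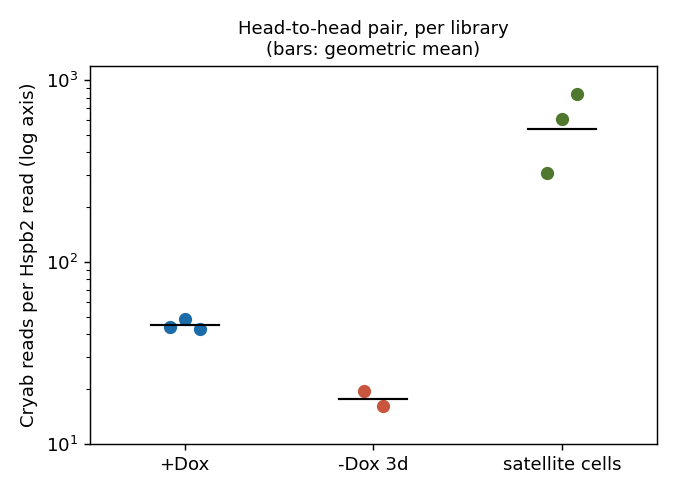
Cryab reads per Hspb2 read in each library, on a log axis; points are libraries and bars are geometric means, n = 3, 2 and 3. The ratio lies at 16.1 to 19.4 after withdrawal, 43.0 to 48.6 with Dox and 310 to 836 in satellite cells, with no overlap.

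The satellite cell libraries differed widely for 4 of the 7 genes. Replicate 2 was the lowest of the 3 libraries for Cryab, Hspb1, Hspb2, Hspb6, Hspb7 and Hspb8. The highest library exceeded the lowest 13.6-fold for Hspb1, 11-fold for Hspb7, 10.7-fold for Hspb6 and 6.71-fold for Hspb8, but 2.42-fold for Cryab, 2.83-fold for Hspb2 and 2.25-fold for Hspb3. In +Dox cells the corresponding figures were 2.08 for Hspb1, 1.25 for Hspb6 and 1.32 for Hspb8, and Hspb7 had 6, 0 and 1 reads there. Inducible chaperones varied among the same libraries. Hspa1a, the heat-induced HSP70, was at 2240, 206 and 329 CPM in satellite cell replicates 1, 2 and 3, and Dnajb1, its HSP40 partner, at 3680, 510 and 1390 CPM. For both, replicate 1 was highest and replicate 2 lowest, as for Hspb1, Hspb2, Hspb6 and Hspb8. The summed immediate early genes were 10100 to 24500 CPM in satellite cells and 131 to 245 CPM in iPax7 cells. The part of either in the levels of the small heat shock proteins was not tested.

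Heat shock factors and the inducible chaperones, which act in the response to protein stress, made a list of 20 genes with 1 call in each direction on Dox withdrawal, beside 4.66% of all tested genes higher and 3.04% lower. Hspa4l (log2 1.71, adjusted p = 0.0335) rose, Fkbp4 (log2 -1.38, adjusted p = 0.0443) fell and 18 were not called, with a median of -0.04. At an unadjusted p under 0.05, 2 were higher and 3 lower. With Dox, 9 were lower than in satellite cells and 1 was higher, beside 25.1% and 19.8% of all tested genes. The median of the list was -0.85. The largest differences were those of Hspa1b (log2 -12.08, adjusted p = 0.000255), Hspa1a (-11.39, adjusted p = 0.000198) and Dnajb1 (-5.87, adjusted p = 0.000242). After withdrawal, 8 were lower than in satellite cells and 0 were higher, beside 20.9% and 18.1% of all tested genes. Hspa1a (log2 -14.45), Hspa1b (-10.14) and Dnajb1 (-6.41) were among those lower. At an unadjusted p under 0.05 in edgeR 1 was higher, and with DESeq2 0 were, beside 3020 of 18227 genes that it called higher. Hspa1a and Hspa1b are near-identical copies that share reads, so the split between them is uncertain. Hspa1a had 8, 10 and 40 reads in the +Dox libraries and 3 and 1 reads after withdrawal, so the sizes of its folds rest on few reads. The summed level of the 20 genes was 6420 to 7240 CPM with Dox, 6520 to 6820 after withdrawal and 12200 to 22800 in satellite cells.

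Partners of HSPB8 in chaperone-assisted autophagy gave 2 calls of 9 on withdrawal, both higher, beside 4.66% of all tested genes higher and 3.04% lower. They were Synpo2 (log2 2.39, adjusted p = 0.0311), which encodes the scaffold myopodin, and Flnc (log2 2.07, adjusted p = 0.00933), which encodes filamin C, a client of the pathway. The other 7 were not called by edgeR, Stub1, the gene of the ubiquitin ligase CHIP, at log2 -1.86 (adjusted p = 0.0944) among them. At an unadjusted p under 0.05, 1 of the 9 was lower, and DESeq2 also called 1 lower, beside 1111 of 18227 genes. Bag3 was at 63.9 and 67.3 CPM after withdrawal against 51.0 to 82.5 with Dox. Against satellite cells, 6 of the 9 were lower with Dox and 0 were higher, beside 25.1% and 19.8% of all tested genes. Bag3 (log2 -5.20, adjusted p = 9.19e-06), Flnc (-4.72, adjusted p = 3.42e-05) and Sqstm1 (-2.37, adjusted p = 5.33e-05), which encodes the autophagy receptor p62, differed most. After withdrawal 5 were lower than in satellite cells and 1 was higher, beside 20.9% and 18.1% of all tested genes. Bag3 was at log2 -5.33 and Sqstm1 at -2.82, and the higher gene was Synpo2 (3.24, adjusted p = 0.002). Bag3 was at 2050 to 3460 CPM in satellite cells.

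Filament and Z-disc proteins that small heat shock proteins bind were mostly higher after withdrawal. Of 10 genes, 8 were called higher on withdrawal and 0 lower, beside 4.66% and 3.04% of all tested genes. Their median log2 fold change was 4.08 over the 10 genes. Desmin (Des, log2 3.63, adjusted p = 8.51e-05), the client bound by alpha-B crystallin, went from 16.2 to 26.1 CPM to 240 and 268 CPM, and Myot, Actn2 (log2 9.12) and Ldb3 (6.27), all of the Z-disc, rose as well. Myot had 0, 1 and 0 reads in the +Dox libraries and 10082 and 8035 after withdrawal, so no size is given for its change. Actn2 had 145, 397 and 1 reads with Dox. Vim, at log2 0.07, and Synm, at -0.87, were not called. These 2 and Des were named after their values were seen. With Dox, 3 were lower than in satellite cells (Myot, Flnc at log2 -4.72 and Des at -4.50) and 2 were higher. The shares of all tested genes were 25.1% lower and 19.8% higher. After withdrawal, 6 were higher than in satellite cells and 2 were lower, beside 18.1% and 20.9% of all tested genes. Actn2 (8.31) and Ttn (7.15) were among those higher. The 15 adult myofibre genes all rose on withdrawal, beside 4.66% of all tested genes. Among them, Myh1 went from 0, 2 and 0 reads to 13001 and 16215 reads. The sum of the 15 genes went from 389 to 430 CPM to 37400 to 39400 CPM, against 209 to 452 CPM in satellite cells. The 11 measured genes of early differentiation all rose as well (median 7.97), beside the same 4.66%. The 12 satellite cell markers summed to 3970 to 5640 CPM with Dox, 1120 to 1180 after withdrawal and 15800 to 23700 in satellite cells. Sdc4 and Myf5 made up most of each sum, with Sdc4 alone at an average of 13800 CPM in satellite cells. On withdrawal 4 of the 12 fell and 2 rose (Itga7 and Heyl), beside 3.04% and 4.66% of all tested genes. With Dox, 10 were lower than in satellite cells and 1, Pax7, was higher, beside 25.1% and 19.8%. After withdrawal all 12 were lower, beside 20.9%. The 6 heart markers summed to at most 18.8 CPM and the 4 markers of embryonic stem cells to at most 0.924 CPM in any library.

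Kinases that act on HSPB1 and CRYAB, directly or through another kinase, or that, like Dmpk, bind small heat shock proteins made a list of 9 genes. It gave no call on withdrawal in edgeR. At an unadjusted p under 0.05, 2 were higher and 1 lower, and DESeq2 called 2 higher, beside 1192 of 18227 genes. With Dox, Prkd1 (log2 -2.79, adjusted p = 0.00152) and Dmpk (-2.02, adjusted p = 0.00206) were among 3 that were lower than in satellite cells, and Mapk11 was higher (2.42, adjusted p = 0.00911), beside 25.1% of all tested genes lower and 19.8% higher. After withdrawal Mapkapk3 was the 1 call, lower than in satellite cells (log2 -1.96, adjusted p = 0.0403), beside 20.9% of all tested genes. Immediate early genes, which mark recent stimulation, were lower than in satellite cells for 10 of 10 in each iPax7 group. The shares of all tested genes lower were 25.1% with Dox and 20.9% after withdrawal. Medians of the list were -6.73 with Dox and -7.49 after withdrawal, with Fosb at -12.33 and -12.17 and Fos at -9.41 and -9.46. On withdrawal, Atf3 (5.84) and Dusp1 (1.85) rose and Nr4a1 (-2.41) fell, beside 4.66% of all tested genes higher and 3.04% lower. The median of the list was then 0.06. Atf3 had 9, 74 and 9 reads in the +Dox libraries, and Nr4a1 had 37 and 14 reads after withdrawal, so the sizes of these changes rest on few reads.

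The genes whose levels followed each member most closely were found by Pearson's r of log2(CPM + 1) over the 8 libraries, in which differences between the 3 groups set most of the value. Hspb3 went with Mb, the gene of myoglobin (r = 0.999), Tmem182 (0.999) and Acta1, skeletal actin (0.998). Hspb2 went with Tnnt2 (0.997), Gm7325 (0.996) and Pgam2 (0.995), and Hspb7 with Myom1 of the M-band (0.990), Ctxn3 (0.990) and Scn3a (0.986). Cryab was nearest to Bdh2 (0.987), Chac1 (0.986) and Pmaip1 (0.986), which were low with Dox and at similar levels in the other groups, as for Pmaip1 at 2.91, 49.7 and 40.5 CPM on average with Dox, after withdrawal and in satellite cells. Hspb1 was nearest to Ifitm5 (0.983), Slc16a3 (0.978) and Ifi27l2a (0.977), all of them highest in satellite cells at averages of 7.69 CPM or less. Hspb6 was nearest to Per3 (0.992), Ccdc32 (0.982) and Lca5 (0.980), and Hspb8 to Prrg2 (0.973) and Psmb10 (0.971).

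Each gene of the family had an ATAC peak near a start site already with Dox. A peak lay within 1 kb of an annotated start for 7 of 7 genes in +Dox cells, at 12 h and 24 h after withdrawal, at 3 days, in iPax7 myotubes and in satellite cells, where 62.8 to 70.2% of 18857 protein-coding genes had one. This included Hspb3 and Hspb7, which had 28 and 7 reads in all +Dox libraries. The Hspb3 peak was weak, with a −log10 q (higher for a surer peak) of 5.27 with Dox and 6.07 at 12 h. That of Hspb7 in satellite cells had 9.35. A stricter limit of 10, tried as an alternative, leaves these peaks out. Peak height, given as the fold enrichment over background that MACS2 reports for the highest peak, differed widely among the genes in +Dox cells, from 47.0 at Hspb6, 28.0 at Cryab and Hspb2, 25.2 at Hspb8 and 19.6 at Hspb1 to 7.06 at Hspb7 and 2.75 at Hspb3.

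The heights changed unequally after withdrawal. At Hspb7 the height went from 7.06 with Dox to 7.48 at 12 h, 13.9 at 24 h and 19.7 at 3 days. At Hspb8 it was 25.2, 14.1, 25.7 and 47.2, and at Cryab and Hspb2, which share the peak, 28.0, 31.3, 50.1 and 47.4. Hspb3 went from 2.75 and 3.27 to 5.80 and 5.27. Hspb6 was at 47.0, 29.0, 47.9 and 52.7, and Hspb1 at 19.6, 10.3, 12.8 and 9.90. From +Dox to 3 days, the height ratio was 2.79 at Hspb7, 1.91 at Hspb3, 1.87 at Hspb8, 1.69 at Cryab and Hspb2, 1.12 at Hspb6 and 0.504 at Hspb1. The median of 12554 genes with a peak in both files was 1.02, and 1.77% of them had a larger ratio than Hspb7, 4.89% than Hspb3, 5.27% than Hspb8, 7.45% than Cryab and 98.6% than Hspb1. With 1 file for each condition these differences have no replicate check, and the total number of peaks also differed, from 112586 at 12 h to 172103 at 3 days.

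**Figure D4:**
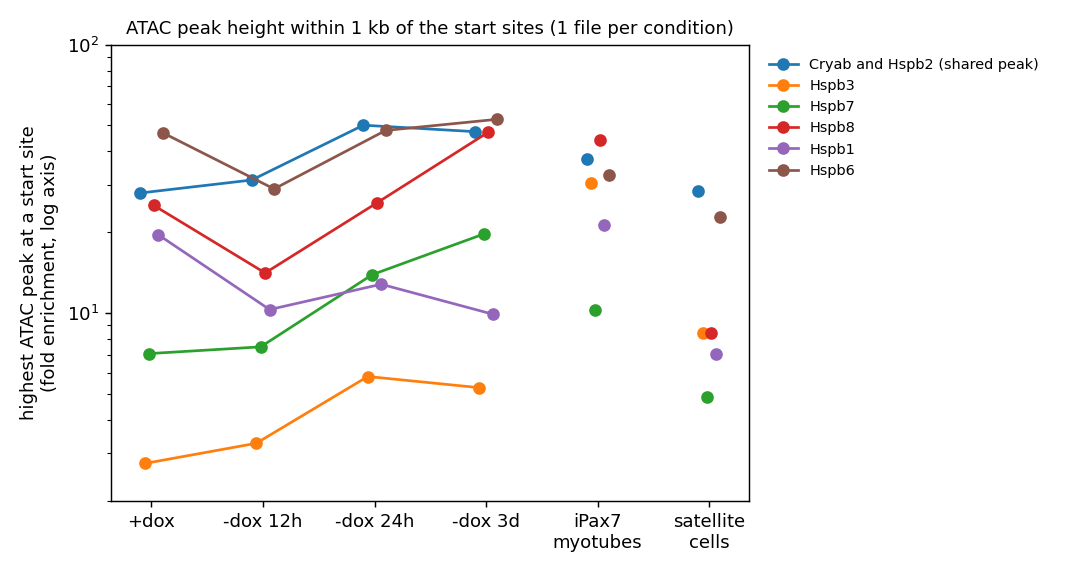
Fold enrichment of the highest ATAC peak within 1 kb of a start site, on a log axis, in iPax7 cells with Dox and 12 h, 24 h and 3 days after withdrawal (joined), in iPax7 myotubes and in satellite cells; each point is 1 file. The peak at Hspb7 rises from 7.06 to 19.7 over the series while that at Hspb1 falls from 19.6 to 9.90, and the Hspb3 point of myotubes belongs to a peak centred 1645 bases downstream of its start.

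The ATAC signal of Hspb7 lay upstream of its annotated start. The summit at 3 days was at position -722 from the start, and no peak of the iPax7 or satellite cell files overlapped the 300 bases of its RefSeq promoter.

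At the other genes, the summit at 3 days was at position -13 from the most upstream start for Hspb1, -154 for Hspb8, 29 for Hspb3, 249 for Hspb6 and 229 for Cryab. The printed promoters of Hspb1, Hspb3 and Hspb8 were overlapped by a peak in each iPax7 condition and in satellite cells. In iPax7 myotubes, the highest peak near Hspb3, of 30.4, was centred 1645 bases downstream of the start and beyond the gene, and the peak over its promoter was 9.80. In satellite cells heights were 28.5 at Cryab and Hspb2, 22.7 at Hspb6, 8.40 at Hspb3 and at Hspb8, 7.03 at Hspb1 and 4.88 at Hspb7. Hspb3 had the lowest height with Dox and Hspb7 the lowest in satellite cells. The peak at Hspb6 also covers the start region of BC053749.

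Between and beyond the head-to-head pair, 2 accessible regions stood out. The shared peak spanned positions -443 to 820 from the Cryab start with Dox and covered the whole interval between the genes in the +Dox, 24 h, 3 day, myotube and satellite cell files, and in the 12 h file it began at position -381 from the Cryab start, short of the Hspb2 start. A second peak lay at the 3′ end of Cryab and mostly past it, 3829 to 4389 bases from its start at 3 days. Its height was 6.97 with Dox, 9.93 at 12 h, 12.3 at 24 h and 25.7 at 3 days, and 10.9 in satellite cells, and the iPax7 myotube file had no peak there.

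**Figure D5:**
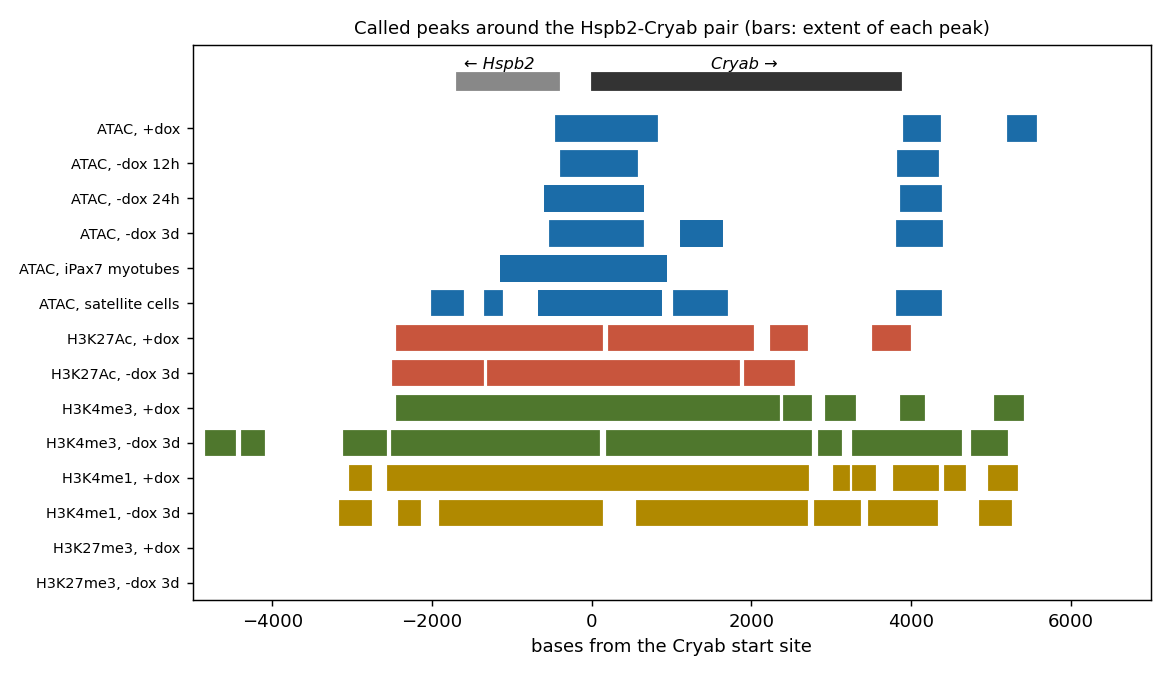
Peaks around Hspb2 and Cryab in bases from the Cryab start site; grey and black bars are the genes and coloured bars the extent of each called peak in iPax7 cells or satellite cells. A shared ATAC peak covers the Cryab start in each file and reaches the Hspb2 start in all but the 12 h file. A second one lies at the 3′ end of Cryab, from 3829 to 4389 bases at 3 days, in all but the myotube file. No H3K27me3 peak was called.

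Histone marks separated Hspb3 from the rest. With Dox, H3K4me3 and H3K27Ac, the marks of active promoters, were called within 1 kb of a start for 6 of 7 genes, all but Hspb3, beside 64.6% and 51.7% of protein-coding genes. After withdrawal they were called for 7 of 7, beside 70.4% and 48.6%. At Hspb3, H3K4me3 went from 0 to 79.1% of the window covered, H3K27Ac from 0 to 65.6% and the enhancer mark H3K4me1 from 23.2 to 72.8%. H3K27me3, the mark of Polycomb repression, covered 12.2% of the Hspb3 window with Dox and none after withdrawal, and it was called at no other gene of the family in either condition, beside 23.5% and 21.5% of all genes. Hspb7, with 7 reads in all +Dox libraries, differed from this and had H3K27Ac over 77.8% and H3K4me3 over 54.0% of its window with Dox, which became 85.3% and 97.1%. At Hspb8, H3K4me3 coverage went from 42.4 to 85.4%, whereas at Hspb1 it was 58.5 and 58.9% and at Cryab 100 and 95.8%. The H3K4me3 file of the 3 day cells held 214172 peaks against 94067 with Dox, and the median coverage over genes with a peak was 55.8% against 50.6%. Whether depth had a part in the coverage differences was not tested.

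In myoblasts of C2C12, an established mouse line, ATAC and H3K27Ac peaks again set Hspb3 apart, and H3K4me3 and H3K4me1 peaks did not. In parental myoblasts, flag control myoblasts and myoblasts with flag-tagged Pax7, an ATAC peak was called for 6 of 7 genes, all but Hspb3, beside 48.7 to 61.0% of genes. In C2C12 myotubes it was called for 7 of 7, with a height of 5.17 and a −log10 q of 8.85 at Hspb3. In parental myoblasts the peaks at Hspb1 and Hspb7 had a −log10 q of 7.47 and 4.95. All of these are below the stricter limit of 10. H3K27Ac was called for the same 6 genes in both myoblast lines with a flag, beside 57.6 and 58.7% of genes, and H3K27me3 for none of the 7, beside 20.4 and 23% of genes. H3K4me3 was called for 5 genes in flag control myoblasts, all but Hspb3 and Hspb7, beside 48.8% of genes. In Pax7-flag myoblasts it was called for 2, Hspb6 and Hspb8, beside 41.1%. H3K4me1 was called for 3 genes in flag control myoblasts, Hspb1, Hspb6 and Hspb7, beside 54.6% of genes. In Pax7-flag myoblasts it was called for 7, beside 68%. The count of 3 became 7 when the window was widened to 2.5 kb. Each condition has 1 file, so these counts have no replicate check.

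The deposited Pax7 binding sites lay 90.5 kb or more from the start sites of the family. The paper holds that its list probably misses some sites, because Pax7 may stay at some of them without Dox. The deposited sites, 2455 regions called with Dox and in no library after withdrawal, were nearest to Hspb7, at 90.5 kb, and Hspb8, at 93 kb from its nearest start site. Hspb3 had its nearest site at 131 kb, Hspb1 at 283 kb, Hspb2 and Cryab at 412 and 413 kb and Hspb6 at 457 kb. Thus 2 of 7 genes had a site within 100 kb, beside 19.3% of protein-coding genes, and the distances stood on either side of the all-gene median of 383 kb. Of protein-coding genes, 18% had a nearer site than Hspb7 and 18.4% than Hspb8.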

How the data were processed

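RNA was sequenced from iPax7 cells with Dox (3 libraries), iPax7 cells 3 days after withdrawal (2) and satellite cells (3). The authors deposited raw read counts per gene symbol. The submitters' processing notes list Trimmomatic 0.32, TopHat2 2.0, Bowtie2 2.2, HTSeq 0.6 and the mm9 build with no role given, and the annotation behind the counts is not given in the sources used here. For ATAC-seq the authors aligned with Bowtie2 2.2.6, merged replicates and called peaks with MACS2 2.0.10, and the deposited files give each peak's fold enrichment and its −log10 q. Histone mark and Pax7 files, called with Qeseq by the authors, hold positions only.

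Rows of uncounted reads were left out. Genes were filtered with filterByExpr (minimum count 10, minimum total 15) and tested with edgeR 4.0.16 (TMM, quasi-likelihood test, Benjamini-Hochberg threshold 0.05) in R 4.3.3, fitting all 8 libraries together. The test was tried on simulated data. DESeq2 1.42.0, other scalings, no filter, fits of only the groups compared, a replicate block and leaving out each library were alternatives. Levels per kb used annotated exon length, found for 20478 symbols of the NCBIM37 (mm9) annotation. Peaks were counted within 1 kb of a start site. Named were all 7 genes, Pax7 and Myog, for each gene list up to 3 called genes with the largest absolute log2 fold change in a comparison, the remaining small heat shock proteins, and the 3 genes most alike each member. The members and lists were chosen with earlier results of these data known. Counting depth was 39010958 to 54674619 reads on genes. Some named items and 1 sequence are not reported here.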

Additional observations from a re-analysis of the deposited data

How the results depend on the processing

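Over 14 alternative settings per comparison, 264 of 294 log2 fold changes of the 7 genes kept their direction and their side of the threshold, 16 lost the threshold, 7 passed it and 7 changed sign. Of 13 called differences, 9 were called in every setting: Cryab, Hspb2, Hspb3 and Hspb7 on withdrawal, Cryab, Hspb1 and Hspb7 for +Dox against satellite cells, and Hspb2 and Hspb3 for -Dox 3d against satellite cells. The 7 changes of sign were all in differences that were not called. For Hspb6 on withdrawal, the log2 fold change was 0.003 with DESeq2's size factors and 0.003 with DESeq2, and -0.103 to 0.064 over fits that left out a library. For Cryab in -Dox 3d against satellite cells it was -0.204 to 0.46, and for Hspb8 in +Dox against satellite cells -0.161 to 0.77, over the same kind of fit. The number of the 7 genes called for -Dox 3d against satellite cells was 2 to 5 over these fits, and 2 without either -Dox 3d library, where the lone library is assumed to vary like the other groups. The Hspb1 call in that comparison was lost in 9 alternatives, with adjusted p from edgeR of 0.0513 (library totals) to 0.169 (without -Dox 3d replicate 1). Called H3K4me1 in C2C12 flag control cells went from 3 to 7 genes with a window of 2.5 kb. Scaling by library totals, chosen after seeing the data, moved the median of all genes to -0.22 on withdrawal and to 0.196 for +Dox against satellite cells, and the share of calls that were higher from 60.5 to 48.3% and from 44.2 to 56.6%. Calls over all genes on withdrawal were 1142, and 2155 with only the iPax7 libraries, 2303 with DESeq2 and 488 to 674 without -Dox 3d replicate 1 or 2 or +Dox replicate 1 or 2. For -Dox 3d against satellite cells they were 5780, and 3204 and 3382 without -Dox 3d replicate 1 and 2. The cause of these differences was not tested. The replicate numbers did not pair the libraries (correlations of deviations -0.108 to 0.083 between libraries of the same number). With a replicate block, 6 of the 7 genes were called on withdrawal (Hspb8 at an adjusted p of 1.17e-05 and Hspb1 at 0.0405 in addition, edgeR), 3 for +Dox against satellite cells and 4 for -Dox 3d against satellite cells, and 4017 genes in all on withdrawal. No -Dox 3d library has the number 3, so with the block replicate 3 of the other group adds nothing to a difference from -Dox 3d. For Hspb1 on withdrawal this leaves out the +Dox library at 14.8 CPM.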
